A study of Danio rerio with 57 samples.

Results

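The places described here carried no H3K9me3 region in the 2, 2.5 or 3 hpf lists and a region in each of the 3.5, 4 and 4.5 hpf lists of a zebrafish embryo time course (hpf, hours post fertilisation). They were found by joining the touching and overlapping regions of all 6 lists on chromosomes 2 to 9 and 15 to 25 into places, and keeping those with at least 1 bp covered in each later list and none in any earlier one. Of 49729 such places, 4796 (9.64%) met the rule. The marked or unmarked state in each list chose these places, so their presence and absence over time is a description and not a result.

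H3K9me3 was mapped by CUT&RUN, in which an antibody bound to chromatin directs a nuclease that cuts out the DNA next to it, in whole embryos of the AB genotype. Per the labels, the time course holds 17 libraries made with the H3K9me3 antibody Abcam 8898, 2 at 2 hpf and 3 at each of 2.5, 3, 3.5, 4 and 4.5 hpf, and 10 libraries made with IgG as control antibody. All libraries carried E. coli spike-in DNA. The other 30 libraries belong to a confirmation experiment with several antibodies and were not analysed here. The 6 lists do not name their libraries and were taken, from the times in their names, to come from the time course. No source used here says whether or how replicates were combined, so each time point gives 1 value with no spread between embryos, and no comparison below has a test. Whole embryos mix all cells present at a stage, so more cells carrying the mark and more of the mark per cell cannot be told apart.

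Trimethylation of lysine 9 on histone H3 is a mark of heterochromatin, the compact and largely silent part of the genome. It is written by SUV39 and SETDB1 type methyltransferases and bound by HP1 proteins, which can recruit more of the methyltransferase, so that a marked stretch can spread along the chromosome. In vertebrate genomes it lies mainly over transposons, satellite repeats and clustered gene families. The long arm of zebrafish chromosome 4 is rich in repeats, replicates late and is a known heterochromatic part of the genome. Around 3.5 hpf the embryo is a blastula in which the zygotic genome has recently become broadly active.

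On the 19 chromosomes the lists held 5673, 16006, 24729, 33146, 38899 and 25986 regions from 2 to 4.5 hpf and covered 0.473%, 1.66%, 3.35%, 5.41%, 6.86% and 6.41% of the sequence. Chromosomes 1 and 10 to 14 are outside the rule. The deposited signal at 4.5 hpf stands apart there, with a median of 643 on chromosomes 1 and 10 to 13 and 796 on chromosome 14 against 126 on the 19 chromosomes, where the medians at 4 hpf were 102, 101 and 107. Chromosome 14 held 1873 regions at 4 hpf and 453 at 4.5 hpf. Read depth is unknown, so a place that first appears at 3.5 hpf may have been marked below detection before.

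Of the 11776 places first listed at 3.5 hpf, 40.7% were listed again at both 4 and 4.5 hpf, and these are the places described here. Another 3607 (30.6%) were listed at 4 hpf but not at 4.5 hpf, 387 (3.29%) at 4.5 hpf but not at 4 hpf, and 2986 (25.4%) at 3.5 hpf alone. The whole list also held fewer regions at 4.5 hpf, 25986 against 38899 at 4 hpf. Such shares were not counted for places first listed at other times, so these have no background beside them. The kept places were already the longer ones at 3.5 hpf, with a median covered length of 847 bp (quartiles 590 and 1392 bp) against 631 bp for those lost at 4.5 hpf and 500 bp for those seen at 3.5 hpf alone. The rule is narrow at its edges. The kept place with the least covered length in any late list had 258 bp, and kept places just outside the rule had as little as 247 bp covered before 3.5 hpf. Of the 3607 places lost at 4.5 hpf, 225 (6.24%) had a 4.5 hpf region within 1 kb, the nearest 10 bp away. The nearest earlier region to a kept place was 12 bp away, at chr4:72436199-72437617, and 11 kept places had a gap under 100 bp.

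The places lay on all 19 chromosomes and in most of their length. They numbered 4.61 per Mb on average, from 3.98 per Mb on chromosome 24 to 5.80 per Mb on chromosome 22, and 44 of 1053 windows of 1 Mb held none. The window with most of these places, chr7:12000001-13000000, held 18, against a median of 4. Places of any kind numbered 75 there. The 18 covered 20.7 kb of that window at 3.5 hpf, 27.2 kb at 4 hpf and 33.1 kb at 4.5 hpf. The next 4 windows tied at 16 places each and were chr3:4000001-5000000, chr4:74000001-75000000, chr18:4000001-5000000 and chr22:35000001-36000000. Places of any kind numbered 75, 130, 89 and 107 in these windows, so some were crowded with places in general. In the chromosome 3 window the length covered by the 16 went from 17.4 kb at 3.5 hpf to 36.0 kb at 4 hpf and 39.2 kb at 4.5 hpf. In the chromosome 4 window it went from 14.6 kb to 19.2 kb and 23.0 kb. Most places had no other of the same kind within 20 kb. The median gap from a place to the nearest of the same kind was 56226 bp, and 23.9% had such a neighbour within 20 kb. Regions of other places were not counted here.

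**Figure D1:**
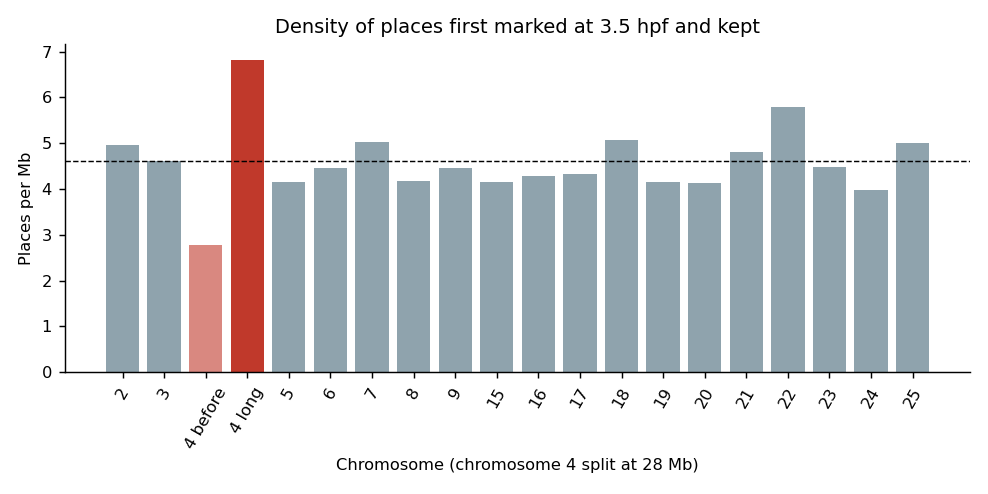
Places first marked at 3.5 hpf and kept, per Mb of each chromosome, with chromosome 4 split at 28 Mb and the mean of 4.61 per Mb as a dashed line. The long arm of chromosome 4 reached 6.83 per Mb and the part before it 2.79 per Mb, while the other chromosomes lay between 3.98 and 5.80. As a share of all union places the order was the opposite, 9.51% on the arm and 11.6% before it, against 9.64% on the 19 chromosomes.

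By number, the long arm of chromosome 4, taken from 28 Mb to the end at 78.1 Mb, held 342 of the 4796 places, or 7.13% (95% exact binomial interval 6.42% to 7.90%, for counting error only). Over all union places the share was 7.23%. It was 6.64% for places first marked at 3 hpf and kept, 6.94% for those first marked at 2.5 hpf and kept and 7.44% for those in all 6 lists. The arm makes up 4.81% of the 19 chromosomes, and the share of the places described here was near that of all places. That closeness depends on which regions enter. With regions named primary only, 5.13% of the places were on the arm against 8.52% of all places, and 2.04% of the 3 hpf group, less than the arm's part of the sequence. With the 50% of regions of lowest deposited p-value in each list the shares were 6.02%, 8.39% and 3.01%. Both settings also leave out long regions. The 5 places longest at 4.5 hpf, all on the arm, were not named primary in that list. Their deposited p-values there were 0.965 or 0.972. How far such losses lower the arm shares was not tested. Places first marked at 3.5 hpf and not kept had 5.42% on the arm. Of the places first marked at 3.5 hpf, 47.5% of those on the arm were kept and 45.3% of those on chromosome 4 before it. On whole chromosomes the kept share ran from 35.1% to 47.1%, chromosome 4 being the highest.

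By covered length the arm's part was larger and differed between time points. It held 8.84% of the length covered by these places in the 3.5 hpf list, and 11.1% and 12.3% in the lists at 4 and 4.5 hpf. The same shares were 9.63%, 11.5% and 12.9% for places first marked at 3 hpf and kept. Over all union places they were 8.9998%, 10.6% and 12.4%, so the places described here were near the background.

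Chromosome ends held fewer of these places than of the earlier ones. The outer 1 Mb at each end, 3.65% of the 19 chromosomes, held 253 places or 5.28% (95% exact interval 4.66% to 5.95%), where 6.91% of all union places lay. The share was 8.61% for places first marked at 3 hpf and kept, 9.05% for those first marked at 2.5 hpf and kept and 9.65% for those in all 6 lists. It was below the share of the 3 hpf group on 17 of 19 chromosomes. Places first marked at 3.5 hpf and not kept had 6.22% there, so a low share at the ends was also seen among them. Along this order of first appearance the end share was lower the later a kept place was first marked. With regions named primary only the share was 9.02%, slightly above the 8.92% of all places and below the 12.5% of the 3 hpf group. With 1 list per time point the difference was not tested.

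Places lay away from earlier regions, although nearer to them than an average unmarked base. The median gap between a place and the nearest region of the 2, 2.5 or 3 hpf lists was 11075.5 bp (quartiles 4190 and 26858 bp), with 3.71% within 1 kb, 29.3% within 5 kb and 67.1% within 20 kb. Measured from the centre of the place the median was 12212 bp, against 18530 bp for all bases outside earlier regions. Of the centres 65.8% lay within 20 kb, where 52.1% of such bases did. Within 1 kb the order was the opposite, with 0.459% of centres and 5.29% of bases. The rule favours that order, since a place touches no earlier region and its centre lies further in than its edge. The smallest distance from a centre was 477 bp, while a single base can lie right beside an earlier region. On the long arm the median edge gap was 7717 bp, against 11359 bp for places elsewhere. Unmarked bases there were also nearer to earlier regions, with a median of 10612 bp. Measured from place centres the arm median was 9550 bp, so arm places were only slightly nearer than arm bases. Within 20 kb lay 77.2% of arm centres and 69.7% of arm bases, but within 5 kb 24.3% and 30.8%. The 3 hpf list held the nearest earlier region, alone or tied, for 71.0% of places, the 2.5 hpf list for 22.4% and the 2 hpf list for 6.67%. These lists also differed in size in that order, with 24729, 16006 and 5673 regions. To 2 hpf regions alone the median gap was 73186 bp. Earlier regions within 20 kb on both sides flanked 24.6% of the places. Neither this share nor those by nearest list were computed for unmarked bases.

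**Figure D2:**
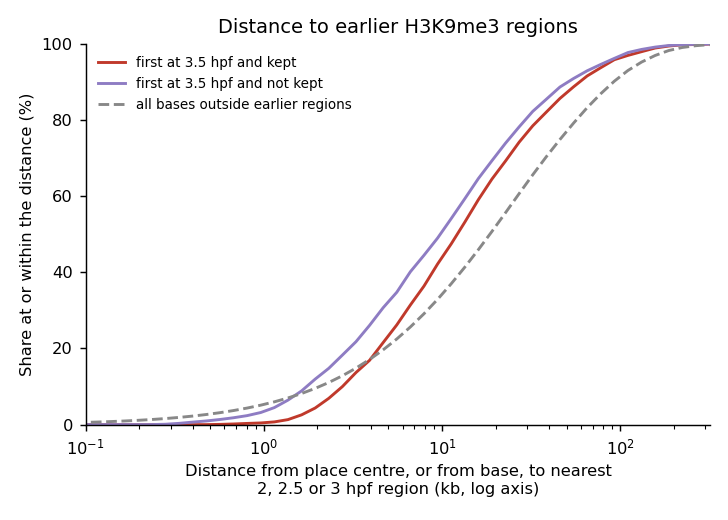
Cumulative share of place centres, or of single bases outside earlier regions, at or within a distance (kb, log axis) of the nearest 2, 2.5 or 3 hpf region, from 1 list per time point. Kept places (median 12212 bp) lie to the right of places not kept (9795 bp), and both lie to the left of all bases (18530 bp) beyond about 5 kb.

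The gap was larger for kept places than for places first marked at 3.5 hpf and not kept, whose median was 9366 bp, on 17 of 19 chromosomes. This difference depends on how places are dated. A place that a later region joins to an earlier one takes the earlier date and leaves the group. When the 3.5 hpf regions were dated one by one, 5649 overlapped no earlier region and were overlapped at both 4 and 4.5 hpf. Of these, 775 (13.7%) had been joined to an earlier region by a later one, and their median gap to it was 1043 bp. With them included the median gap was 8837 bp for kept regions and 8731 bp for regions not kept, which leaves little of the difference seen between places. The joined regions were more often on the long arm, 21.3% of them against 7.32% of the kept regions inside the places described here. With single regions the arm share was 9.24%, and it was 8.93% for 3 hpf regions treated in the same way. The end shares were 5.47% and 8.74%, so the low share at chromosome ends remained with either way of dating.

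The surroundings of these places were only slightly more marked than the chromosomes as a whole before they appeared. In the 50 kb on each side, the mean covered share at 3 hpf was 3.99%, against 3.35% over the 19 chromosomes. It was 4.81% around places not kept, 4.81% around places first marked at 3 hpf and kept and 8.18% around places in all 6 lists. At 4.5 hpf the flanks were covered over 8.15% around these places. On the long arm the flanks were covered over 4.62% at 3 hpf and over 10.2%, 15.6% and 17.0% in the lists that followed, where the whole arm was covered over 4.81%, 10.1%, 15.1% and 16.5%.

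The covered length of the places was larger in each later list. The median was 847 bp at 3.5 hpf, 1210.5 bp at 4 hpf (quartiles 792 and 1973 bp) and 1431 bp at 4.5 hpf (quartiles 913 and 2362 bp), and the order of the medians held on each of the 19 chromosomes. Together the places covered 5.48 Mb, 7.73 Mb and 9.16 Mb, which was 9.73%, 10.8% and 13.7% of the length of the successive lists on these chromosomes. The number of places with at least 5 kb covered went from 36 to 131 and 226, the last being 4.71% of them against a background of 18.5% over all 17635 places found in the 3.5, 4 and 4.5 hpf lists. That background includes the 4796 places described here. Place by place, covered length was larger at 4 than at 3.5 hpf in 3731 places (77.8%), against 74.3% in that background. From 4 to 4.5 hpf it was larger in 3350 places (69.9%), against 58.7%. From 3.5 to 4.5 hpf it was larger in 4021 (83.8%), against 73.4%, and smaller in 748. The median ratio over that hour was 1.51 (quartiles 1.12 and 2.22), and 1468 places (30.6%) at least doubled, against 16.4%.

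Over the same hour, places first marked earlier differed less in ratio. The median ratio of covered length from 3.5 to 4.5 hpf was 1.22 for places first marked at 3 hpf and kept, 1.09 for those first marked at 2.5 hpf and kept and 1.06 for those in all 6 lists. The ratio was higher than that of the 3 hpf group on each of the 19 chromosomes. The rule makes 3.5 hpf the first list of the places described here, whereas the 3 hpf group had been listed before. The ratio of the former thus starts from a first-listed length, a median of 847 bp against 1537 bp, and its higher value is a description only. In bp the median gain was 445.5 bp for the places described here. It was 312, 217 and 244 bp for the 3 hpf, 2.5 hpf and all-list groups. On the long arm the gains were 1342.5 bp against 1330, 1335.5 and 848.5 bp, so there the gain was near that of the 3 hpf and 2.5 hpf groups. Among places of 500 to 1500 bp at 3.5 hpf the ratio was 1.54 for 3164 of the places described here and 1.33 for 1956 places of the 3 hpf group. Despite the higher ratio the places stayed the shortest of these groups. At 4.5 hpf their median of 1431 bp stood beside 1912 bp, 2847 bp and 5036 bp for the 3 hpf, 2.5 hpf and all-list groups.

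Set by the list in which each group first appeared, the groups began with similar median lengths. The median covered length in the first list was 847 bp at 3.5 hpf for the places described here, 826 bp at 3 hpf and 845 bp at 2.5 hpf for the others. The first quartiles were 590, 551 and 502 bp. How far the region calling settings, which are not given, set such short lengths was not tested. In the following list it was 1210.5 bp, 1537 bp and 1672 bp, with median ratios per place of 1.27, 1.57 and 1.71. These steps compare different pairs of lists, whose own lengths differ, so they are given side by side.

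**Figure D3:**
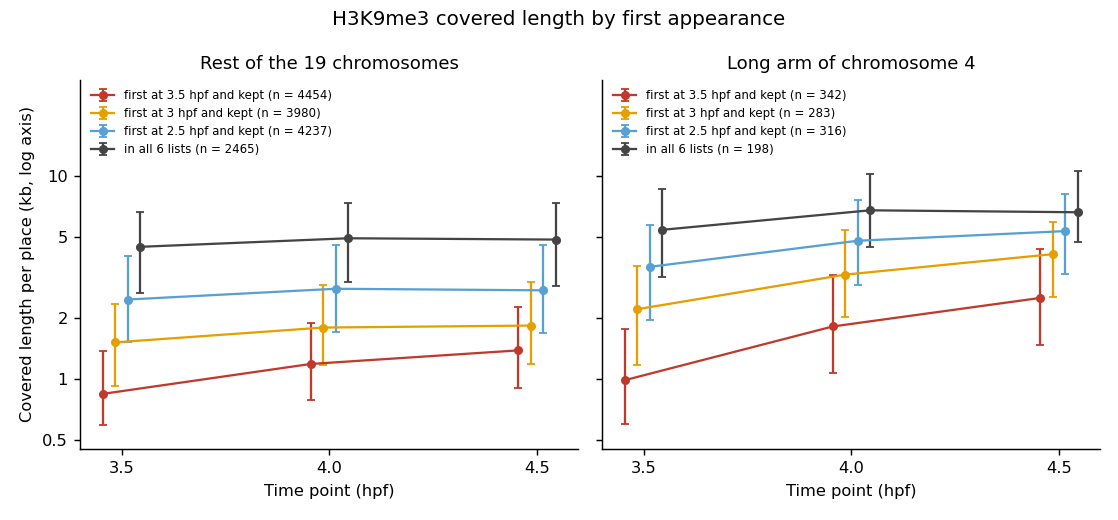
Covered length per place (kb, log axis) at 3.5, 4 and 4.5 hpf for 4 groups defined by first appearance, with points at the median and bars from the first to the third quartile of places, from 1 list per time point. Places first marked at 3.5 hpf go from 841 to 1379 bp outside the long arm and from 983 to 2505.5 bp on it. On this log axis, which shows ratios, theirs is the steepest course among these groups in each panel. In bp their median gain on the arm, 1342.5 bp, was near the 1330 bp of places first marked at 3 hpf and kept.

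On the long arm of chromosome 4 the later coverage was larger than elsewhere. At 3.5 hpf the 342 arm places had a median of 983 bp (quartiles 597 and 1750 bp) and the 4454 others 841 bp (quartiles 590 and 1362 bp), and 10 of the former (2.92%) and 26 of the latter (0.584%) already had 5 kb or more. At 4 hpf the medians were 1810 and 1182 bp, and at 4.5 hpf 2505.5 bp (quartiles 1461 and 4377 bp) and 1379 bp (quartiles 900 and 2250 bp). The quartile ranges still overlapped. Covered length was larger at 4.5 than at 3.5 hpf in 318 of 342 arm places (93.0%) and in 83.1% of the others. The median ratios were 2.16 (quartiles 1.44 and 3.68) and 1.47 (quartiles 1.10 and 2.14). Among places of 500 to 1500 bp at 3.5 hpf the ratios were 2.30 on the arm, for 203 places, and 1.51 elsewhere, for 2961. Coverage of 5 kb or more at 4.5 hpf was found at 66 arm places (19.3%) and at 160 others (3.59%). Over all places found in the 3.5, 4 and 4.5 hpf lists the arm stood higher too, with 89.6% larger at 4.5 hpf on it and 72.1% off it, median ratios of 1.58 and 1.18, and 5 kb or more covered in 40.6% and 16.7%. The same order was seen with a median ratio of 1.63 on it and 1.20 off it for places first marked at 3 hpf and kept. The part of chromosome 4 before the arm, with 78 of the places, had a median ratio of 1.41.

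The added length lay on both sides. From 3.5 to 4.5 hpf the outer borders moved outward on both sides in 2987 places (62.3%), on 1 side in 1486 (31.0%) and on neither in 323 (6.73%). On the arm the border moved outward on both sides in 76.9%. Border moves were not counted in the other groups, so these shares have no background beside them. Of all 17635 places in the 3.5, 4 and 4.5 hpf lists, 73.4% had more covered length at 4.5 than at 3.5 hpf. The border that faced the nearest earlier region moved by a median of 166 bp and the other border by 162 bp, and the facing side moved farther in 2367 places and the other side in 2424. Within 5 kb of an earlier region the facing border moved by a median of 179 bp and the other by 147 bp, and the facing side moved farther in 724 places and the other in 677. Beyond 5 kb the medians were 161 and 169 bp, with 1643 and 1747 places. On the arm they were 483.5 and 397.5 bp, with 181 and 161 places. None of these differences was tested. Where a later region did close the gap, the place would have left the group, as described above. The median ratio of covered length from 3.5 to 4.5 hpf was 1.48 for places within 5 kb of an earlier region and 1.51 for those beyond it. Most places were 1 region throughout. At 3.5 hpf 266 consisted of 2 or 3 regions, and 251 of these were 1 region at 4.5 hpf. Such fusions were 38 of the 342 arm places and 213 of the 4454 others. Fusions were not counted in the other groups, so these counts have no background share. The regions of the whole list were also longer at 4.5 hpf, with a median width of 1673 bp against 995 bp at 3.5 hpf.

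**Figure D4:**
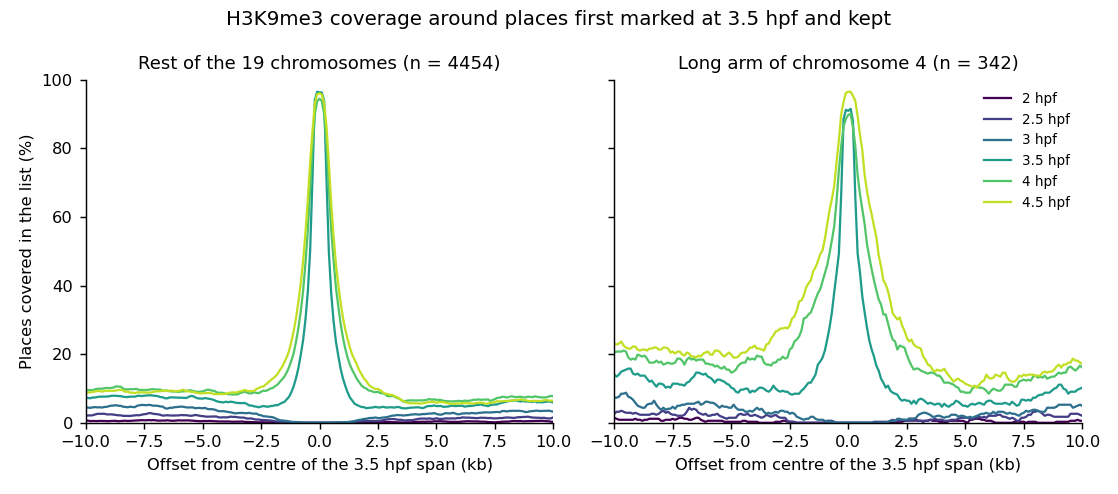
Share of places covered in each of the 6 lists, by offset (kb) from the centre of the 3.5 hpf span, outside the long arm (left) and on it (right). At 1 kb to the right of the centre, coverage is 13.0%, 24.9% and 30.7% at 3.5, 4 and 4.5 hpf outside the arm and 21.3%, 44.7% and 60.8% on it, while the 2, 2.5 and 3 hpf lists are near 0 at the centre because the rule leaves out places marked then.

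The 5 places with most covered length at 4.5 hpf all lay on the long arm of chromosome 4. The longest, chr4:46513186-46531628, had 3002 bp in 2 regions at 3.5 hpf, 14217 bp in 2 regions at 4 hpf and was 1 region of 18443 bp at 4.5 hpf. It gained 15441 bp, more than any other of the 4796 places, and the nearest earlier region lay 8371 bp away. At chr4:55245701-55261043 the covered length was 7132 bp, 13892 bp and 15343 bp in the 3 lists. The place at chr4:48822261-48837172 began as a region of 430 bp, was 3 regions of 7654 bp together at 4 hpf and 1 region of 14912 bp at 4.5 hpf, a 34.7-fold difference. It ended 403 bp from an earlier region. At chr4:39968137-39982872 the values were 7063, 11314 and 14736 bp. The place at chr4:30750088-30763095, 56.3 kb from any earlier region, had 1315, 4051 and 13008 bp. These 5 show that long late coverage was found both beside earlier regions and far from them.

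Among the 5 largest gains, 4 were on the arm as well. The exception, chr16:18103637-18114574, went from 1279 bp at 3.5 hpf to 7614 bp at 4 hpf and 10938 bp at 4.5 hpf, 1116 bp from an earlier region. The other arm place, chr4:54087730-54099937, went from 3469 bp to 10857 and 12208 bp. Of the 100 places with the largest gain, 45 were on the arm and 1 at a chromosome end. Of the 100 longest places at 3.5 hpf, 19 were on the arm, and of the 100 longest at 4.5 hpf, 38. The arm held 7.13% of all 4796 places and the ends 5.28%. Over all places found in the 3.5, 4 and 4.5 hpf lists the median gain was also larger on the arm, 1299 bp against 293 bp off it. Such lists of 100 were not drawn for the other groups.

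**Figure D5:**
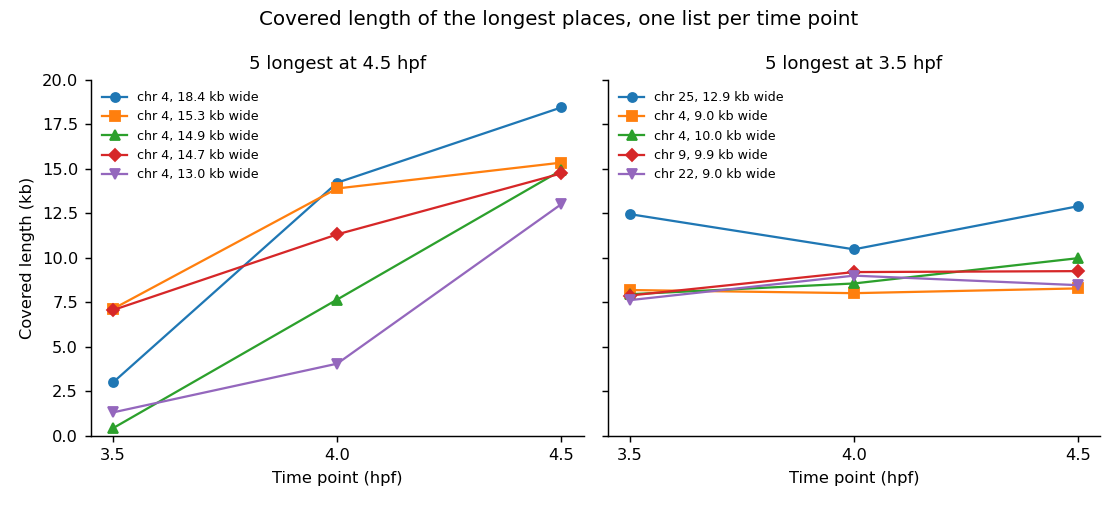
Covered length (kb) at 3.5, 4 and 4.5 hpf of the 5 places longest at 4.5 hpf (left) and the 5 longest at 3.5 hpf (right), labelled by chromosome and full width. The left set, chosen at 4.5 hpf, starts between 430 and 7132 bp and ends between 13008 and 18443 bp, and the right set, chosen at 3.5 hpf, stays between 7620 and 12895 bp throughout.

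The 5 places that were longest when they appeared changed little. The longest, chr25:26137040-26149934, had 12449 bp at 3.5 hpf, 10473 bp in 2 regions at 4 hpf and 12895 bp at 4.5 hpf. At chr4:72762952-72771906 the values were 8187, 8011 and 8279 bp, and at chr4:77844902-77854878, in the outer 1 Mb, 7952, 8556 and 9977 bp. At chr9:55796884-55806827, also in the outer 1 Mb, they were 7878, 9196 and 9249 bp, and at chr22:4107002-4115997 they were 7620, 8996 and 8461 bp. Picking places by their length in 1 list favours a smaller difference afterwards in this set and a larger difference before in the set chosen at 4.5 hpf, and how much of either contrast that accounts for was not tested.

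Isolated places were slightly shorter than the others. The 1576 places beyond 20 kb of an earlier region had medians of 775, 1134.5 and 1322 bp in the 3 lists, against 847, 1210.5 and 1431 bp for all 4796. The place farthest from any earlier region, chr21:28272768-28273542, lay 449 kb away and had 400, 523 and 603 bp in the 3 lists. At chr4:9135171-9136334, before the long arm and 306 kb from an earlier region, the values were 1054, 894 and 1164 bp. At chr16:26785063-26786274 they were 640, 1212 and 724 bp, and at chr2:32283172-32284160 they were 572, 912 and 935 bp. The exception was chr3:26148641-26152704, 300007 bp away, with 1846, 3786 and 4027 bp. Of the 100 most isolated places, 2 lay on the long arm and none in the outer 1 Mb, against 7.13% and 5.28% of all 4796.

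The deposited values per region are the authors' own, and they placed these regions in the lower part of the 3.5 hpf list and nearer the middle later. The median rank of the signal within its list, as a percentile, was 37.0 at 3.5 hpf (quartiles 20.4 and 55.1), 51.7 at 4 hpf and 42.3 at 4.5 hpf. On the long arm it was 33.5, 56.9 and 59.1, and elsewhere 37.4, 51.2 and 41.1. Regions of places not kept had a median of 18.7 at 3.5 hpf, regions of places first marked at 3 hpf and kept 60.8, and regions of places in all 6 lists 89.3. Region names begin with primary or secondary, a distinction that no source used here explains. Regions named primary were 15.1% at 3.5 hpf against a background of 29.2% of the list, 38.7% against 31.6% at 4 hpf and 12.3% against 12.4% at 4.5 hpf. The share with a deposited p-value below 0.05 was 3.24% against 12.6% at 3.5 hpf, 12.9% against 13.5% at 4 hpf and 7.18% against 7.52% at 4.5 hpf. No source used here says what that p-value tests. In 226 places (4.71%) a region was named primary in each of the 3 lists, and in 2682 (55.9%) in none of them. These counts over the 3 lists were not made for other groups, so they have no background share.

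The 3 places with the lowest deposited p-value at 3.5 hpf were long at once. The place chr16:15535582-15541643 had p = 6.42e-06 in the authors' list and 4557, 6062 and 6044 bp covered in the 3 lists. The place chr6:29637888-29645849 had 5031, 7906 and 7882 bp. The place chr6:10850102-10853944, 34.2 kb from any earlier region, had 3682, 3638 and 3257 bp and was named primary in each of the 3 lists. Places with a region named primary at 3.5 hpf, 773 in all, had medians of 2039, 2453 and 2614 bp, and the 4023 others 759, 1061 and 1260 bp. The arm held 6.86% of the former and 7.18% of the latter. A low deposited p-value did not always go with length. The longest place at 3.5 hpf, chr25:26137040-26149934, had a deposited p-value of 0.983 there and was not named primary. Regions of places in all 6 lists had a median deposited p-value of 0.222 at 3.5 hpf, but 0.979 at 4 hpf and 0.965 at 4.5 hpf.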

How the data were processed

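CUT&RUN for H3K9me3 in whole zebrafish embryos was deposited by the authors as 1 region list per time point, at 6 time points. HOMER, bedtools, Picard, SAMtools, STAR and Trim Galore are listed in the submitters' processing notes, with no version or role. No source used here gives the genome build or the peak calling settings. The deposited files lack column names. Judged from its values, each deposited list gives every region a signal, a p-value and a score capped at 1000. Signal was ranked within a list only, the score was not used, and the p-value ordered regions for 1 alternative and for 3 named places. The lists were tied to the time course by the time in their names, which confirmation libraries share at 2.5 and 4.5 hpf.

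Places, covered lengths and gaps were computed with Python 3.11.15, numpy 2.4.6 and pandas 2.3.3, with exact binomial intervals from SciPy 1.17.1, and were checked on simulated lists. Touching regions were merged. A place was put on the arm or at an end by its centre. Chromosome length was the furthest region end in any list. Named places are the 5 longest at 4.5 and at 3.5 hpf, the 5 largest gains, the 5 most isolated, the 3 widest on the arm, the 3 lowest p-values and the windows with most places. The places nearest to an earlier region and the 2 windows added by a tie were named outside that rule. The members and groups were chosen with earlier results of these data known. No read depth, replicate value, control list or genome sequence was used, so no test, sequence or gene is given. Alternatives varied the regions, merging, overlap, boundaries and chromosomes.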

Additional observations from a re-analysis of the deposited data

Results flagged for a closer look

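Places that met the same rule outside the 19 chromosomes were left out of the main results. Those on chromosomes 1 and 10 to 14 entered only the setting with all 25 chromosomes, given below, and those on unplaced scaffolds entered no comparison. On chromosomes 1 and 10 to 14 such places numbered 1057 of 12930 places (8.17%), and on chromosome 14 alone 62 of 2276 (2.72%). On unplaced scaffolds they numbered 245 of 2282 (10.7%), beside 9.64% on the 19 chromosomes. No control list was analysed here.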

How the results depend on the processing

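No paired analysis was possible because each time point is 1 list without replicates, and no replicate could be left out. Of 81 values under other settings, 36 stayed, a count within 1.5 times the main count and a share or median within the main value's 95% interval, and 45 moved. Of the 36, 5 come from asking for 200 bp in each late list, which changed nothing since no place had less than 258 bp. The single-region, centre and arm-free settings were chosen after seeing the data. In no setting run did the median ratio from 3.5 to 4.5 hpf fall below 1. In each of the 9 other settings that rebuilt all groups, the end share stayed below that of places first marked at 3 hpf and kept. The ratio stayed above theirs in the same 9 settings, in each of which the rule made 3.5 hpf the first list. In those settings the ratio on the arm (1.64 to 2.21) also stayed above that elsewhere (1.27 to 1.52).
With regions named primary only there were 1131 places, 5.13% on the arm and 9.02% at ends, with a median gap of 44061 bp and a ratio of 1.29. The end share was then slightly above the 8.92% of all places and below the 12.5% of the 3 hpf group. With the 50% of lowest deposited p-value there were 3171 places, 6.02% on the arm, 7.19% at ends, a gap of 23057 bp and a ratio of 1.37. Regions of at least 500 bp gave 13327 bp and 1.45, and those of at least 1 kb 9.77% on the arm, 7.21% at ends, 29500 bp and 1.30. Merging across 1 kb gave 12077 bp. Merging across 5 kb gave 3188 places, 5.36%, 4.05% and 19982 bp. Asking for 25% of the place in each late list gave 6.02% on the arm and a ratio of 1.43. Without places within 1 kb of earlier regions the gap was 11728 bp, and without those within 5 kb it was 18142 bp, with 6.19% on the arm and 4.21% at ends. All 25 chromosomes gave 5.84% on the arm, 11643 bp and 1.55. Presence at 3.5 and 4 hpf alone gave 8403 places, 6.26% on the arm and 10462 bp. Ends of 0.5 Mb held 2.48% and of 2 Mb 10.9%. The gap was 13713 bp to the 3 hpf list, 73186 bp to the 2 hpf list, 12212 bp from place centres and 8837 bp for single regions, 9.24% of which were on the arm. The ratio was 1.47 without chromosome 4 and without the arm, and 1.45 by span.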

Other observations

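The nearest earlier region lay somewhat more often to the left than to the right of the places first marked at 3.5 hpf and kept, left meaning toward lower coordinates. The median gap was 21500 bp to the left and 24826 bp to the right, the left region was nearer for 2543 places and the right for 2253, and the left median was the smaller on 18 of 19 chromosomes. For places in all 6 lists the order was the opposite, with 15438 bp to the left and 12690 bp to the right, and the left median was smaller on 1 of 19 chromosomes. Places first marked at 3.5 hpf and not kept had 19103 bp to the left and 20291.5 bp to the right, with the left median smaller on 13 of 19 chromosomes. Places first marked at 3 hpf and kept had 18296 and 20485 bp, and those first marked at 2.5 hpf and kept 17178 and 15975 bp. The pattern was noticed in the profile around the places and then counted on the same lists, and it was not tested.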
